A study of Mus musculus with 8 samples.

Results

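Interferon-stimulated genes are the transcripts that cells switch on when an interferon binds its receptor. They were followed here as a list of 35 mouse genes, found by their symbols in a deposited table of raw read counts. All 35 were among the 24391 gene symbols of that table, and all 35 were also among the 15980 genes with enough reads to be tested. The samples were 8 flash-frozen brachiocephalic arteries with atherosclerotic lesions, from C57BL/6 mice kept for 18 weeks on a Western diet. The sources used here describe the mice as wild type and as a lineage tracing line for smooth muscle cells, and name no other allele. Of the 8 mice, 4 received an antibody against interleukin-1β (IL-1β) and 4 received immunoglobulin G (IgG) as the control, so each library is 1 animal. The antibody neutralises a secreted protein and deletes nothing. Its dose and the start of dosing are not given in the sources used here.

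Type I interferons signal through the receptor chains IFNAR1 and IFNAR2 and the kinases JAK1 and TYK2 to a complex that includes STAT2 and IRF9 and binds a promoter element called the interferon-stimulated response element (ISRE). Interferon-γ uses another receptor and acts mainly through a different element, the gamma-activated site (GAS). The induced genes encode sensors of foreign nucleic acid, enzymes that block viral replication, the ubiquitin-like protein ISG15 and several of the transcription factors themselves. Most nucleated cells can make these transcripts, so in a whole artery fewer or more cells of a type and less or more RNA per cell cannot be told apart.

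The sequences below show the promoter element that many members share, and they are given because many members were high in the same single animal. Promoter windows of 250 bases before to 50 bases after the start site (RefSeq, GRCm38.p6, a later build than the mm9 of the counts) were matched by symbol for 26 of the 35 members. The ISRE core was searched as GAAA, any 2 bases and GAAA, and the GAS as TTC, any 3 bases and GAA, each on both strands. The 2 patterns can overlap, as they do in Bst2. Each line is written 5′ to 3′ on the gene's strand, with the matched bases in capitals. The first 4 genes were at least 4-fold higher in 1 animal than in any other. The next 3 also hold the ISRE core but differed less, and Irf1 holds only the GAS pattern. A lead of at least 2-fold in that animal occurred in 6 of 14 matched members with the ISRE core. Such a lead also occurred in 4 of 12 without the core, among them Ifi44 and Oasl1, which are not shown.
Isg15, chr4:156200855-156200916, minus strand: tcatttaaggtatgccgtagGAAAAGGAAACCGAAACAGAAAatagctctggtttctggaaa
Ifit1, chr19:34640765-34640833, plus strand: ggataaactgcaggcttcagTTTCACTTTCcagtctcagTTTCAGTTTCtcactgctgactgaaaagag
Ifit3, chr19:34583353-34583436, plus strand: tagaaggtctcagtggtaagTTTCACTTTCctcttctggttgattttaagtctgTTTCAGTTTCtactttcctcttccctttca
Rsad2, chr12:26456543-26456592, minus strand: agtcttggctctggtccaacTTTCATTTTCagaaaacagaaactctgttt
Gbp3, chr3:142559979-142560034, plus strand: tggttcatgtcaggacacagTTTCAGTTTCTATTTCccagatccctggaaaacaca
Gbp2, chr3:142620584-142620633, plus strand: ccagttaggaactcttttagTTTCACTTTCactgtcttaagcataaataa
Oas3, chr5:120777705-120777754, minus strand: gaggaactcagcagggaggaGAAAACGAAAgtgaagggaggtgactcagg
Irf1, chr11:53769904-53769952, plus strand: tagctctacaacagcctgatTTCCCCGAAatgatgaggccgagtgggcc

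The ISRE core was present in the windows of 14 of the 26 matched members (53.8%), against 3.99% of the 27025 genes in the table. The GAS pattern was present in 7 of 26 (26.9%), against 9.55% of genes. Isg15 held 3 overlapping ISRE matches, and Ifit1 and Ifit3 held 2 separate ones each.

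Libraries held 20137336 to 29453014 counts assigned to genes. Defining transcripts of the labelled tissue were present in every library. Acta2 (smooth muscle) had 6951 to 31600 counts, Cd68 (macrophage) 3794 to 10012 and Pecam1 (endothelium) 7589 to 14220. Ucp1, which defines brown fat, also had 18731 to 69923 counts. Antibody animal 3 stood apart in the interferon-stimulated genes, and the comparison of the groups is therefore given with and without it. Il1b, which encodes the protein the antibody binds, was at 5.88, 7.52, 9.66 and 14.2 CPM (assigned counts scaled to a common library size) in IgG animals 1 to 4 and at 4.39, 5.19, 3.85 and 4.57 CPM in antibody animals 1 to 4, so the groups did not overlap (lower with antibody, as for 1.25% of genes) and antibody animal 3 lay close to the other 3 antibody animals. Its adjusted p in edgeR was 0.9997.

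The summed level of the 35 genes was 3503 CPM in antibody animal 3 and between 1253 and 1591 CPM in the other 7 animals. That 1 animal had the highest value of all 8 for 32 of the 35 genes, against 15.2% of all genes tested. For 14 of the 35 it was at least 2-fold above every other animal, against 0.238% of all genes, that is 14 of the 38 genes with such a lead in the whole table. The lead over the next highest animal reached 4.80-fold, for Rsad2. The exceptions were Irf1, Isg20 and Ifi27l2a, which were higher in other animals.

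**Figure D1:**
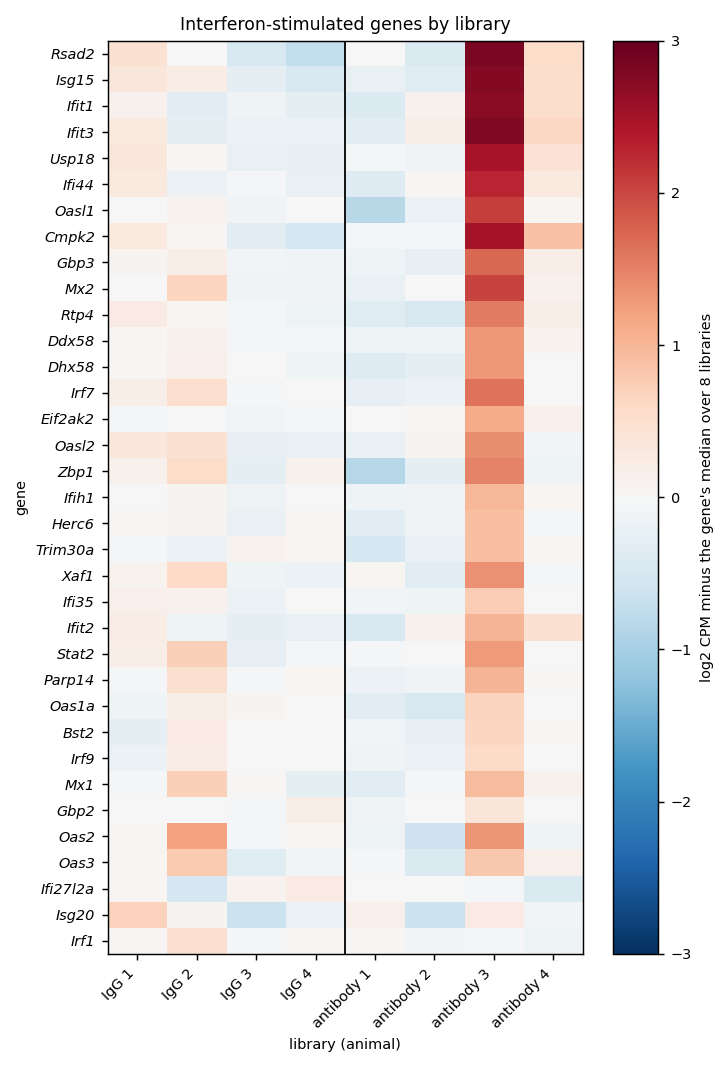
Each row is 1 of the 35 interferon-stimulated genes and each column 1 animal; colour is log2 CPM minus the gene's median over the 8 libraries, with rows ordered by the ratio of antibody animal 3 to the highest of the other 7. Antibody animal 3 is the darkest column for 32 of 35 genes, and the bottom 3 rows (Ifi27l2a, Isg20, Irf1) are the exceptions.

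Between the treatment groups, 31 of 35 members had log2 fold changes above 0, with a median of 0.30, while 47.7% of all genes were above 0 and the median of all genes was -0.01. In the edgeR fit, with p adjusted over 15980 genes, 0 of 35 members passed 0.05, and 0% of all genes were called in either direction; the lowest adjusted p of any member was 0.9997. At an unadjusted p under 0.05, edgeR gave 3 members that were higher (Cmpk2, Ifit1 and Ifit3) and 0 that were lower, against 1.13% and 2.06% of all genes. That count of 3 was 9 without antibody animal 1, against 142 of 16156 genes higher at that p. It was 6 without antibody animal 2, against 430 of 16019 genes. It was 0 without IgG animal 2, 3 or 4, against 303 of 16176, 143 of 16081 and 94 of 16051 genes higher. Without antibody animal 3 the sign turned from above to below 0 for 22 members: 9 members were above 0 and 26 below, the median log2 fold change was -0.16, and 0 members had an unadjusted p under 0.05 in edgeR (0.68% of genes higher and 1.4% lower). In that fit 54% of all genes were below 0.

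**Figure D2:**
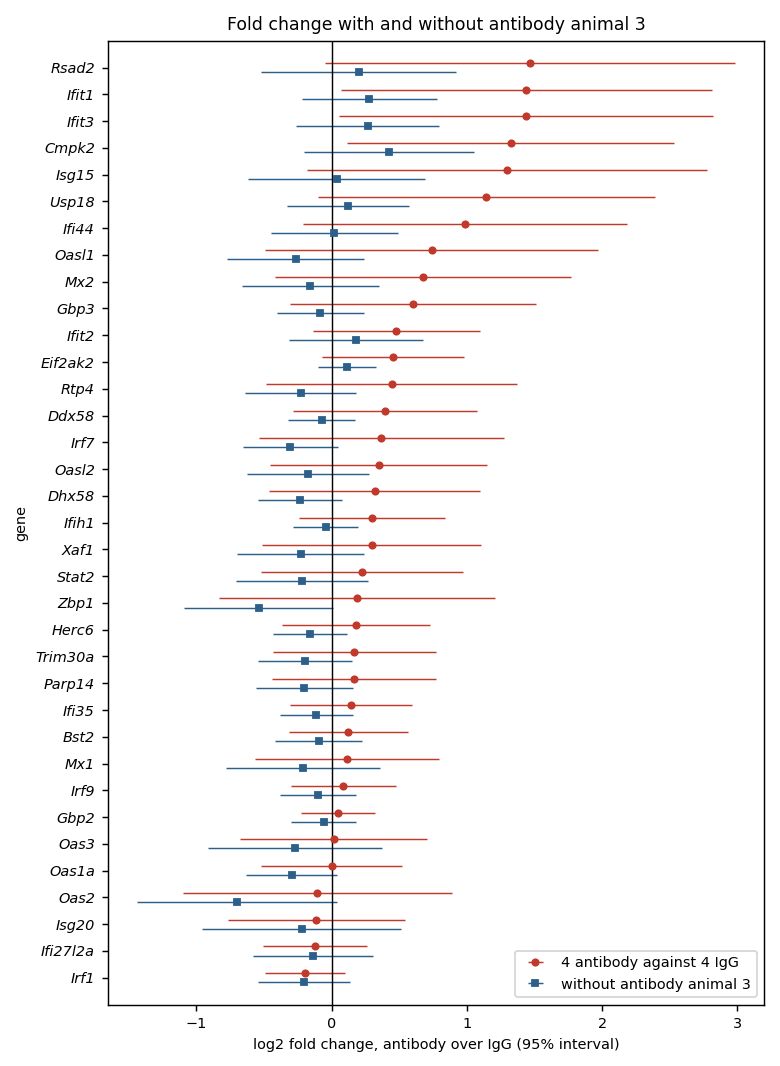
Log2 fold change of antibody over IgG for each gene, with its 95% interval from the edgeR fit; red circles use all 8 animals and blue squares leave out antibody animal 3. The red values run from -0.20 (Irf1) to 1.46 (Rsad2), and the blue values lie between -0.70 (Oas2) and 0.43 (Cmpk2).

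By their median SD, the members spread more within the antibody group than within the IgG group, and not so without antibody animal 3. The median over members of the within-group SD was 0.24 in IgG and 0.69 in antibody animals on the log2 CPM scale. It was 0.23 in the antibody group without animal 3. The SD was larger in antibody than in IgG animals for 32 of 35 members, against 34.3% of all genes. Without animal 3 it was larger for 18 of 35 members, against 4627 of 15980 genes, so the share was still higher among members. Over all genes the median SD was 0.27 in IgG and 0.21 in antibody animals, and 0.18 in antibody animals without animal 3. Antibody animal 1 was the lowest of the 8 for 14 members and antibody animal 2 for 8, while antibody animal 4 was the lowest for 1. Among IgG animals, animal 3 was the lowest for 6 members, animal 4 for 4, and animals 1 and 2 for 1 each. The same counts over all genes were not made.

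Among the antiviral effectors, Rsad2 encodes viperin, which makes a chain-terminating nucleotide, and Cmpk2, its neighbour on the chromosome, encodes a mitochondrial nucleotide kinase. Rsad2 (mm9 chr12:27127608-27141317) was at 66.4, 49.4, 35.2 and 29.4 CPM in IgG animals 1 to 4 and at 48.0, 36.1, 343 and 71.3 CPM in antibody animals 1 to 4. Antibody animal 3 was far above the rest, antibody animal 4 was the next highest, and the remaining antibody values lay within the IgG range. The log2 fold change of Rsad2 was 1.46 ± 0.67 (SE), with a 95% interval of -0.05 to 2.98 and an unadjusted edgeR p of 0.0565. Without animal 3 it was 0.20 ± 0.31 (-0.52 to 0.92). Cmpk2 (chr12:27154080-27164702) was at 33.6, 28.3, 22.1 and 19.2 CPM in IgG and 26.7, 26.8, 154 and 50.4 CPM in antibody animals. Here antibody animals 3 and 4 were both above every IgG animal, and the groups overlapped through animals 1 and 2. The log2 fold change was 1.32 ± 0.54 (95% interval 0.11 to 2.53), the member with the smallest unadjusted p in edgeR (0.0353), and 0.43 ± 0.27 (-0.20 to 1.05) without animal 3.

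The IFIT proteins bind foreign or unmodified RNA and block its translation, and their genes form a cluster on chromosome 19. Ifit1 (chr19:34715379-34724499) was at 30.2, 21.9, 25.5 and 22.9 CPM in IgG and at 20.8, 30.5, 182 and 40.1 CPM in antibody animals. Ifit3 (chr19:34658019-34663472) was at 41.9, 28.3, 30.7 and 30.4 CPM in IgG and at 27.0, 38.7, 237 and 52.7 CPM in antibody animals. In both genes antibody animal 3 was the highest, and antibody animal 1 was below every IgG animal. Group means were 25.1 ± 3.69 and 68.2 ± 75.9 CPM for Ifit1, and 32.8 ± 6.15 and 89.0 ± 99.5 CPM for Ifit3 (IgG and antibody, SD, n = 4 each). In the antibody group the SD was thus larger than the mean. The log2 fold changes were 1.44 ± 0.61 (95% interval 0.07 to 2.81) for Ifit1 and 1.44 ± 0.62 (0.05 to 2.82) for Ifit3, with unadjusted edgeR p of 0.0412 and 0.0433. Without animal 3 they were 0.28 ± 0.22 (-0.22 to 0.78) and 0.27 ± 0.23 (-0.26 to 0.79). Ifit2 (chr19:34625184-34651024) was at 42.3, 32.9, 30.2 and 30.8 CPM in IgG and 26.3, 39.9, 74.0 and 49.6 CPM in antibody animals. Its log2 fold change was 0.48 ± 0.27 (-0.14 to 1.09, unadjusted edgeR p 0.113), and 0.18 ± 0.22 without animal 3. The ratio of animal 3 to the next highest animal was 1.49 for Ifit2, against 4.53 for Ifit1 and 4.50 for Ifit3. Ifit3 has a near copy, Ifit3b, in the same cluster, and reads placed equally well in both were not counted, so its level is uncertain.

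ISG15 is a ubiquitin-like tag, HERC6 is the ligase that attaches it in mice, and USP18 removes it and also restrains the interferon receptor. Isg15 (chr4:155573533-155574927) was at 10.2, 9.41, 6.56 and 5.87 CPM in IgG and at 6.83, 6.20, 54.1 and 11.6 CPM in antibody animals. Usp18 (chr6:121195924-121220935) was at 20.2, 16.3, 13.5 and 13.4 CPM in IgG and at 15.5, 14.8, 88.7 and 21.5 CPM in antibody animals. In both genes animals 1 and 2 of the antibody group lay among the IgG values. Log2 fold changes were 1.30 ± 0.66 for Isg15 (95% interval -0.18 to 2.78, unadjusted edgeR p 0.0787) and 1.14 ± 0.55 for Usp18 (-0.10 to 2.39, p 0.0672). Without animal 3 they were 0.04 ± 0.29 (95% interval -0.62 to 0.69) and 0.12 ± 0.20 (-0.33 to 0.57). Herc6 had a smaller lead in animal 3, 1.75-fold over the next animal, and a log2 fold change of 0.18 ± 0.24, and -0.16 ± 0.12 without animal 3.

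**Figure D3:**
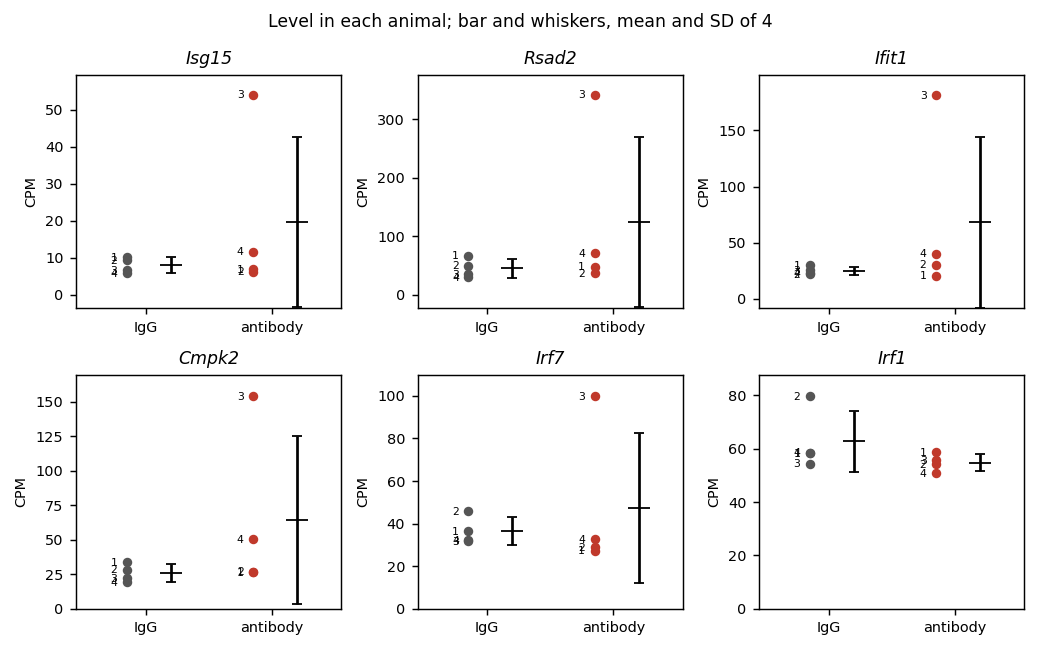
CPM of 6 genes in each animal, grey for IgG and red for antibody, numbered by animal, with the mean and SD of 4 beside the points. In Isg15, Rsad2, Ifit1, Cmpk2 and Irf7 the point for antibody animal 3 lies above the other 7, while in Irf1 it lies among them at 55.6 CPM.

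The sensors of nucleic acid were all higher in antibody animal 3, with ratios to the next animal from 1.88 to 2.25. Ddx58 (chr4:40150810-40186858), which encodes the RNA sensor RIG-I, was at 72.1, 75.9, 67.3 and 67.5 CPM in IgG and at 63.3, 63.1, 171 and 75.0 CPM in antibody animals. It had a log2 fold change of 0.40 ± 0.30 (-0.28 to 1.08, unadjusted edgeR p 0.221), and -0.07 ± 0.11 without animal 3. Eif2ak2 (chr17:79251890-79281912), which encodes the double-stranded RNA kinase PKR, was at 47.9, 49.2, 47.0 and 48.6 CPM in IgG and at 49.98, 51.2, 108 and 55.1 CPM in antibody animals. It was the 1 member of 35 in which all antibody values lay above all IgG values, against 0.713% of all genes, and the gap between the groups was small (49.2 to 49.98 CPM). The groups overlapped when Rn45s (the ribosomal precursor), antibody animal 2 or IgG animal 1 was left out, or with no filter on low counts. The log2 fold change of Eif2ak2 was 0.45 ± 0.23 (-0.07 to 0.98, unadjusted edgeR p 0.0836), and 0.11 ± 0.09 without animal 3, where the groups still did not overlap (1.21% of genes). Ifih1 (MDA5), Dhx58 (LGP2, which tunes both) and Zbp1 (a sensor of Z-form nucleic acid) had log2 fold changes of 0.30 ± 0.24, 0.32 ± 0.35 and 0.19 ± 0.45, and of -0.04 ± 0.11, -0.23 ± 0.14 and -0.54 ± 0.24 without animal 3.

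The transcription factors differed among themselves. Irf7 (chr7:148449082-148452323), the factor that amplifies type I interferon production, was at 36.4, 45.7, 31.9 and 32.3 CPM in IgG and at 27.2, 28.9, 99.9 and 32.6 CPM in antibody animals. Antibody animals 1 and 2 were below every IgG animal, and animal 3 was 2.19-fold above the highest of the others. The log2 fold change was 0.37 ± 0.40 (-0.54 to 1.27, unadjusted edgeR p 0.386), and -0.31 ± 0.15 without animal 3 (95% interval -0.66 to 0.04). Stat2 and Irf9, which encode parts of the ISRE-binding complex, led in animal 3 by 1.47-fold and 1.26-fold. Irf1 (chr11:53583516-53591876), a factor strongly induced by interferon-γ, was at 58.4, 79.7, 54.5 and 58.5 CPM in IgG and at 58.6, 54.1, 55.6 and 50.9 CPM in antibody animals. In Irf1 antibody animal 3 ranked 5 of 8, and IgG animal 2 was the highest; the log2 fold change was -0.20 ± 0.13 (-0.49 to 0.10, unadjusted edgeR p 0.17).

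The OAS enzymes make the messenger that activates RNase L, and the Oas and Oasl genes lie in clusters on chromosome 5. Oasl1 and Oasl2, which lie side by side, led in animal 3 by 3.92-fold and 1.91-fold. Oasl2 (chr5:115346943-115362254), which had the most reads per kilobase of exon in the family (14.6 CPM per kilobase over the 8 animals), was at 46.5, 51.3, 31.3 and 32.1 CPM in IgG and 32.4, 39.3, 98.0 and 35.3 CPM in antibody animals. The log2 fold change of Oasl2 was 0.35 ± 0.36 (-0.46 to 1.15, unadjusted edgeR p 0.356). Oas1a, Oas2 and Oas3 led by 1.42-fold, 1.08-fold and 1.01-fold. Oas2 was at 30.3, 67.2, 28.6 and 29.9 CPM in IgG and at 26.4, 19.1, 72.9 and 26.7 CPM in antibody animals. Thus IgG animal 2 was almost as high as antibody animal 3 in Oas2, which was not so for Isg15, Rsad2 or the Ifit genes. Without animal 3 all 5 genes of the family had negative log2 fold changes, from -0.70 ± 0.32 for Oas2, whose remaining groups did not overlap (1.92% of genes), to -0.18 ± 0.20 for Oasl2. Oas1a has close copies beside it, so its counts rest on the reads that distinguish them.

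Mx and guanylate-binding proteins are large antiviral GTPases. Mx2 was at 9.27, 14.8, 8.76 and 8.74 CPM in IgG and at 8.10, 9.53, 38.5 and 10.2 CPM in antibody animals, and its log2 fold change was 0.68 ± 0.49, and -0.16 ± 0.22 without animal 3. Mx1 led in animal 3 by only 1.18-fold, and its log2 fold change was 0.11 ± 0.30, and -0.21 ± 0.25 without animal 3. Gbp3 (chr3:142223016-142236176) was at 61.7, 67.3, 54.9 and 54.1 CPM in IgG and at 53.3, 48.9, 193 and 66.3 CPM in antibody animals, with a log2 fold change of 0.60 ± 0.41 (-0.31 to 1.51, unadjusted edgeR p 0.17), and -0.08 ± 0.14 without animal 3. Gbp2, which lies beside Gbp3 on chromosome 3, was at 52.7, 53.1, 51.6 and 61.0 CPM in IgG and at 49.8, 53.4, 68.4 and 54.1 CPM in antibody animals. Its log2 fold change was 0.05 ± 0.12, and -0.06 ± 0.10 without animal 3. The neighbours thus differed, with ratios of animal 3 to the next highest of 2.86 for Gbp3 and 1.12 for Gbp2, although both windows above hold the ISRE core.

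The other members ranged from clear to absent leads. Ifi44 (chr3:151393887-151412923), an interferon-induced gene of little known function, was at 13.001, 9.31, 10.4 and 9.11 CPM in IgG and at 8.05, 10.8, 51.2 and 12.99 CPM in antibody animals. The log2 fold change of Ifi44 was 0.99 ± 0.53 (-0.21 to 2.18, unadjusted edgeR p 0.095), and 0.02 ± 0.20 without animal 3. Rtp4, Trim30a (whose near copies make its count uncertain), Xaf1, Ifi35 and the ADP-ribosyltransferase gene Parp14 led in animal 3 by 1.46-fold to 2.48-fold. Bst2 (chr8:74058161-74061336), which encodes tetherin, a membrane protein that holds virus particles on the cell, was at 41.6, 59.3, 51.0 and 49.5 CPM in IgG and at 47.2, 42.5, 78.2 and 51.5 CPM in antibody animals, with a log2 fold change of 0.12 ± 0.20 (-0.31 to 0.56, unadjusted edgeR p 0.539), and -0.10 ± 0.14 without animal 3. Ifi27l2a (chr12:104672083-104681890) had the highest level per length of the list, 172 CPM per kilobase of exon against 2.50 for Oas3, the lowest. It was at 165, 112, 169 and 187 CPM in IgG and at 159, 156, 150.1 and 117 CPM in antibody animals, and its log2 fold change was -0.12 ± 0.17 (-0.51 to 0.26, unadjusted edgeR p 0.496). The exonuclease gene Isg20 was highest in IgG animal 1 (16.2 CPM) and at 11.9 CPM in antibody animal 3. Members with the ISRE core in their window had a median ratio of animal 3 to the next animal of 1.92 (1.01 to 4.80, 14 genes), and matched members without it a median of 1.73 (0.698 to 3.94, 12 genes).

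The rest of the pathway was read from lists of interferon ligands, receptors and kinases, upstream sensing genes, negative regulators and other induced genes. Of 21 ligand genes, 9 had no count in any library, and only the keratinocyte interferon Ifnk had enough reads to be tested, at 9 to 27 counts per library. Ifnb1 had 0 counts in all 8 libraries, which allows up to 3 counts in each. Ifng had 6 counts in antibody animal 3 and 0 to 7 in the other libraries. The summed ligand level was 1.09 CPM in antibody animal 3, inside the 0.721 to 1.25 CPM of the other 7.

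Among 10 genes for receptor chains and their signalling partners, antibody animal 3 was the highest of the 8 for 0, and its summed level of 1005 CPM lay inside the 956 to 1306 CPM of the other 7. Of the 10, 0 were above 0 and 10 below, with a median log2 fold change of -0.13 (-0.10 without animal 3), and 0 passed 0.05 after adjustment in edgeR. At an unadjusted p under 0.05 edgeR also gave 0. Ifngr2, Il10rb and Ifngr1, the receptor genes with the smallest p, had log2 fold changes of -0.25 ± 0.14, -0.23 ± 0.21 and -0.16 ± 0.15.

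Of 18 upstream sensing genes, 3 were above 0 and 15 below, with a median of -0.17, and 0 passed after adjustment. Tlr7, an endosomal sensor of single-stranded RNA, was at 61.4, 66.2, 97.9 and 87.0 CPM in IgG and at 46.0, 52.0, 51.1 and 63.5 CPM in antibody animals. Its log2 fold change was -0.56 ± 0.17, and -0.54 ± 0.19 without animal 3, so this value did not rest on that library. The cytosolic DNA sensor gene Aim2 had -0.40 ± 0.14 and Samhd1, a nucleotide hydrolase gene, -0.20 ± 0.10. Among 10 genes listed as negative regulators, 2 were above 0 and 8 below (median -0.09, 0 past adjustment). Of these, Sla, Ptpn6 and Socs3 had -0.41 ± 0.17, -0.36 ± 0.16 and -0.37 ± 0.25. What each of them does in interferon signalling was not tested. Macrophage markers were lower with antibody as well: 0 of 12 were above 0 and 12 below, with a median log2 fold change of -0.33 (-0.25 without animal 3), and 0 passed after adjustment. Their summed level was 2197, 3028, 4773 and 3846 CPM in IgG animals 1 to 4 and 2611, 2607, 2435 and 3440 CPM in antibody animals 1 to 4, so IgG animals 3 and 4 were the highest, as for Tlr7. The part of this difference in the receptor, sensing and regulator genes was not tested.

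The other interferon-induced genes were also often highest in antibody animal 3. Of 58 tested, 34 were above 0 and 24 below, with a median log2 fold change of 0.10, and 0 passed after adjustment in edgeR. Antibody animal 3 was the highest of the 8 for 36 of them (15.2% of all genes) and at least 2-fold above all others for 8 (0.238%). Among these was Gbp10 (40.0 CPM against at most 7.24), which had the largest such ratio of all genes, 5.52. This list too was chosen with earlier results of these data known. Without animal 3, 4 were above 0 and 54 below, with a median of -0.17. Epsti1, Oas1c and Ccl5 had the smallest p, with log2 fold changes of -0.51 ± 0.16, 0.46 ± 0.20 and -0.66 ± 0.31. Without animal 3 these were -0.44 ± 0.17, 0.29 ± 0.19 and -0.58 ± 0.34, and Oas1c was highest in that animal (7.22 CPM against at most 5.08). The first 2 had groups that did not overlap, Epsti1 below and Oas1c above IgG, against 1.25% and 0.713% of all genes.

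**Figure D4:**
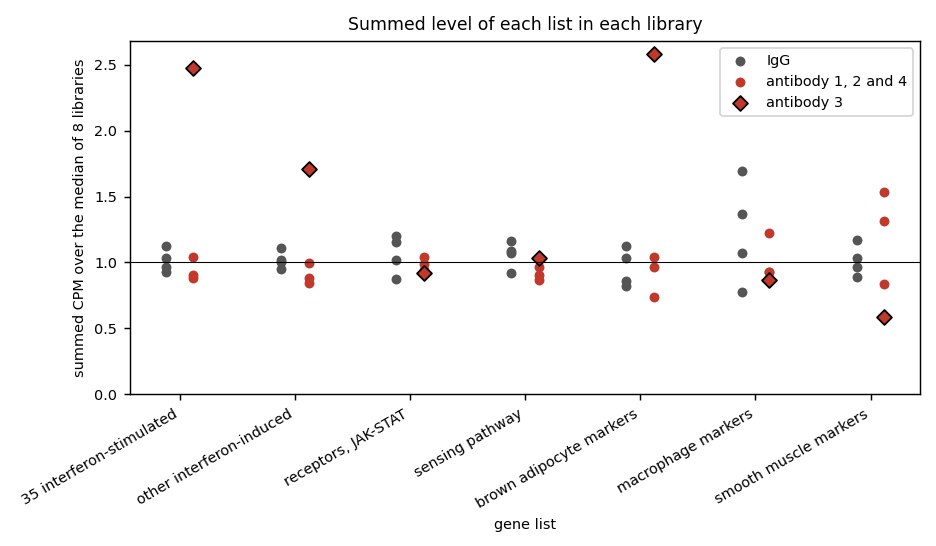
Summed CPM of each gene list in each library, divided by the median of the 8 libraries for that list; grey circles are IgG, red circles antibody animals 1, 2 and 4, and the diamond is antibody animal 3. The diamond stands at 2.47 for the 35 genes, 1.71 for other induced genes and 2.58 for brown fat markers, and near 1 for receptors and sensing genes.

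Markers of some cell types moved with the same library. All 6 brown adipocyte markers were highest in antibody animal 3, with a summed level of 4768 CPM against 1363 to 2077 CPM in the other 7, and Ucp1 was at 69923 counts there. The 8 smooth muscle markers summed to 1655 CPM in animal 3, the lowest of the 8 (2356 to 4342 CPM in the others). Des (22.7 CPM, 14.3 to 24.9 in the others) and Smtn (284 CPM, 206 to 473) did not follow the sum, while the other smooth muscle markers were each lowest there. The 7 skeletal muscle markers summed to 4.77 CPM in animal 3 (7.10 to 67.0). The part of these differences in tissue content in the interferon-stimulated genes was not tested. Macrophage markers (12 genes, 2435 CPM) and endothelial markers (8 genes, 1650 CPM) lay in animal 3 within the range of the other 7 (2197 to 4773 and 1587 to 2047 CPM). For T cells (6 genes) the sum was 9.01 CPM in animal 3 and 7.57 to 30.2 CPM in the others, and for natural killer cells (7 genes) 3.54 and 3.46 to 7.08 CPM. Markers of plasmacytoid dendritic cells, which make much type I interferon, summed to 205 CPM in animal 3 and 209 to 250.1 CPM in the others, most of it from Tcf4; the defining gene Siglech had 30 counts there and 8 to 96 in the others. Thymocyte markers (7 genes) summed to 23.4 CPM in animal 3 and 14.5 to 109 CPM in the others, B and plasma cell markers (7 genes) to 6.83 and 4.88 to 48.2 CPM, and neutrophil markers (9 genes) to 33.5 and 32.5 to 53.7 CPM. None of these immune marker lists was highest in the library with the high interferon-stimulated genes. Its multimapping share of alignments was 43% (35.2% to 48% in the others) and its share of counts from the ribosomal precursor Rn45s 4.09% (1.76% to 7.12%). Only IgG animal 2 was higher in either share. The share of alignments assigned to genes was 27.9% in antibody animal 3 (24.4% to 34.9% in the others), and only IgG animal 2 was lower.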

How the data were processed

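RNA from 8 arteries was sequenced, and the authors deposited raw counts per gene symbol, made with featureCounts 1.4.6-p4 over exons of the UCSC mm9 annotation, per the file headers; no strand or multimapping option is shown. Alignments by status were deposited as counts too. CASAVA, STAR 3.0, Subread and DESeq2 are named in the submitters' processing notes without a role. Groups and animal numbers came from the sample titles. Genes were kept by filterByExpr (minimum count 10, minimum total 15), scaled by TMM and tested with the edgeR 4.0.16 quasi-likelihood F-test (R 4.3.3, robust fit, no covariate), with Benjamini-Hochberg adjustment over 15980 genes at 0.05. Standard errors and 95% intervals came from the same fit. CPM used TMM-scaled library sizes; log2 CPM used a prior count of 2. The edgeR script was tested on simulated data. Alternatives were RLE factors, total counts, Rn45s left out, 2 other filters, DESeq2 1.42.0, limma 3.58.1 voom with quality weights, the animal number as a block, and each animal left out. The members and gene lists were chosen with earlier results of these data known. Genes given in full were the 10 members with the smallest p and the most abundant per length in each role; Oas2, Mx2, Gbp2 and Irf1 were added after their values were seen. From each pathway list up to 3 genes with the smallest p were named; Il1b was always named, and Gbp10, Ifnb1 and Ifng were added after their values were seen. 1 gene of the pathway lists is not reported here. The labels do not say whether animals with the same number shared a litter or a day. Exon length is the authors' value in the deposited table and was used only for CPM per kilobase.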

Additional observations from a re-analysis of the deposited data

Results flagged for a closer look

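Within the antibody group, animal 3 was the high end with a gap to the next animal, as a share of the group's range, above Dixon's 95% limit for 4 samples for 22 of 35 members, against 1.13% of all genes tested. The share was 0.972 for Stat2, 0.93 for Mx2, 0.926 for Irf7, 0.911 for Eif2ak2, 0.91 for Usp18, 0.895 for Oasl2 and Ifi35, 0.889 for Ddx58, 0.887 for Isg15, 0.886 for Ifi44, 0.885 for Rsad2 and Ifih1 and 0.884 for Parp14. It was 0.88 for Ifit1, 0.879 for Gbp3, 0.878 for Ifit3, 0.871 for Xaf1, 0.868 for Oasl1, 0.864 for Dhx58, 0.859 for Oas2, 0.849 for Herc6 and 0.839 for Zbp1. Chance puts about 1 in 20 groups past this limit when any animal at either end counts. The counts above take only animal 3 at the high end, so that share is not their chance level. The members are also not independent of each other.

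In the IgG group, animal 2 was the high end for Oas2 (0.956), Mx2 (0.912) and Irf1 (0.839), animal 4 for Gbp2 (0.843), and animal 3 was the low end for Herc6 (0.864).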

How the results depend on the processing

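In edgeR 0 members passed after adjustment under every alternative, as in DESeq2 and limma-voom; over all genes DESeq2 called 8 and limma-voom 2, and leaving out 1 animal gave 0 to 1. Genes at an unadjusted p under 0.05 numbered 509 in edgeR and 2762 in limma-voom, and 310 to 1517 with 1 animal left out (310 without IgG animal 4, 1517 without IgG animal 1). The quality weight in limma-voom was 6.00 for IgG animal 4 and 0.32 to 0.81 for the other IgG animals, so its values lean on that 1 animal. Members at an unadjusted p under 0.05 in edgeR numbered 3, all higher. There were 0 with no filter on low counts (666 of 21589 genes) and 0 with the replicate block (361 of 15980). With 1 animal left out there were 0 to 9. These were 9 without antibody animal 1 (370 of 16156 genes), 6 without antibody animal 2 (783 of 16019), and 0 without antibody animal 3 or IgG animal 2, 3 or 4. DESeq2 gave 4, adding Ifi44 (565 of 15965 genes). The 3 in limma-voom were Rsad2 and Cmpk2, higher, and Ifi27l2a, lower (-0.30 ± 0.13), without Ifit1 and Ifit3. Members above 0 numbered 27 to 31 under the other alternatives, and 9 to 33 with 1 animal left out, 9 without antibody animal 3 and 28 or more without any other; DESeq2 gave no p for Usp18, so 34 were read there. The median log2 fold change of members ranged from -0.16 to 0.44 with 1 animal left out, negative only without antibody animal 3; it was 0.12 in limma-voom and 0.14 with the replicate block, against 0.30. For other induced genes the range was -0.17 to 0.16, also negative only without that animal. For receptors that range was -0.16 to -0.06, for sensing genes -0.22 to -0.12 and for negative regulators -0.14 to -0.07. The median SD in the antibody group ranged from 0.23 to 0.83. Members not overlapping and higher numbered 1 (Eif2ak2), 0 with Rn45s left out and 0 with no filter, and 0 to 2 with 1 animal left out; not overlapping and lower, 0 to 1.

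Without antibody animal 3 the sign turned for 22 of 35 members, among them Gbp3 (-0.0828 to 0.79 over all animals left out in turn), Oasl2 (-0.18 to 0.50), Bst2 (-0.10 to 0.22), Ddx58 (-0.0747 to 0.53) and Irf7 (-0.31 to 0.54). Ifnk, near the count floor, was -0.05 without that animal, ran from -0.15 to 0.19 and was -0.19 in limma-voom. The replicate block ended no adjusted call, since there was none. Same-numbered animals of the 2 groups deviated together for 1 of 4 numbers (correlations over genes 0.293, -0.344, -0.127 and -0.00119). With 4 animals a group these values cannot show whether the numbers mark pairs, so pairing is not known. No scaling moved the median of all genes by over 0.1; total-count scaling moved the share of genes above 0 from 47.7% to 53.8%, and of those at an unadjusted p under 0.05, 285 of 537 were higher with it against 180 of 509. With 4 animals a group and 1 far from the rest, precision was low: the 95% interval of Rsad2 ran from -0.05 to 2.98.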
